A study of Mus musculus with 20 samples.

Results

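WNT ligands are secreted, lipid-modified proteins that carry signals between neighbouring cells. The transcripts of 10 of them (Wnt1, Wnt3, Wnt3a, Wnt4, Wnt5a, Wnt5b, Wnt6, Wnt8a, Wnt10a and Wnt11) were followed by bulk RNA sequencing in structures grown from mouse embryonic stem cells. These genes were taken by symbol from tables of 54446 gene IDs, in which 19 WNT ligand genes were listed, and each had 1 gene ID. Levels are given in TPM, a unit of transcript abundance corrected for gene length and scaled to the same total in every library, so levels of different genes can be set side by side.

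The study grew gastruloids, elongating stem cell aggregates with an anterior and a posterior end, and trunk-like structures, for which such aggregates are moved into Matrigel, an extract rich in laminin and collagen. All groups used F1G4 mouse embryonic stem cells with the reporters T::H2B-mCherry and Sox2::H2B-Venus, were freed of feeder cells before aggregation, and received a pulse of 3 µM CHIR99021 after 48 h. CHIR99021 inhibits the kinase GSK3 and so activates the β-catenin branch of WNT signalling inside the cell, without a ligand. The group 96h was collected at 96 h, as the precursor of trunk-like structures, from 10 pooled structures per library. The other 4 groups were collected at 120 h from 6 pooled structures per library. Gastruloid was kept without Matrigel. TLSMG was grown in Matrigel, TLSMGC in Matrigel with added CHIR99021, and TLSMGCL in Matrigel with both added CHIR99021 and LDN, which blocks BMP receptors. Doses of these later additions are not given in the sources used here. One cell line was used throughout, and only structures with 1 polarised end were chosen for the pools, so the values hold for chosen structures of that line. Each group had 3 libraries, which the labels call biological replicates.

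In the WNT/β-catenin branch, a ligand binds a Frizzled receptor with the co-receptor LRP5 or LRP6, β-catenin is no longer degraded, and it acts with TCF/LEF factors on target genes such as Axin2, Sp5, Lef1 and Notum. Other ligands, with Wnt5a and Wnt11 as the best known, act mainly on cell polarity and movement through receptors such as ROR2, RYK and PTK7. In the mouse embryo Wnt3 is needed for the primitive streak, Wnt3a for the tailbud and the mesoderm of the trunk, and Wnt5a for elongation of the body axis. Wnt1 and Wnt3a mark the roof of the neural tube, and Wnt6 is known from surface ectoderm, where it acts on somites.

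Promoter windows of 250 bases before an annotated start were read for the members from RefSeq on build GRCm38.p6. Windows were found for 7 of the 10 members, 10 windows in all, and none for Wnt5a, Wnt8a and Wnt10a. Those of Wnt6 and Wnt11 are shown because these ligands differed most with added CHIR99021, and that of Wnt3a because it is the tailbud ligand that did not return to its level at 96 h. All are written 5′ to 3′ on the strand of the gene, and capitals mark the only match to a TCF/LEF core motif, CTTTGA or CTTTGT on either strand.
Wnt6, chr1:74771642-74771891, plus strand: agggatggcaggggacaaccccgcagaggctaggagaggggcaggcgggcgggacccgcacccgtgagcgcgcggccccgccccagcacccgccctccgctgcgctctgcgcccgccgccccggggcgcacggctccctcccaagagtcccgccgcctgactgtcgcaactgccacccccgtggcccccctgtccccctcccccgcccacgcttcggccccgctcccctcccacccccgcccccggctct
Wnt11, first start, chr7:98834862-98835111, plus strand: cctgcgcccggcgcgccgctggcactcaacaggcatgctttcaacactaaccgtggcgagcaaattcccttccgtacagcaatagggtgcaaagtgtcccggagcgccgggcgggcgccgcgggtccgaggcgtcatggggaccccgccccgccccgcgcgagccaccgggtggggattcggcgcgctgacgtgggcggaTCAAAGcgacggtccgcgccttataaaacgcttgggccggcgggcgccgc
Wnt3a, chr11:59290752-59291001, minus strand: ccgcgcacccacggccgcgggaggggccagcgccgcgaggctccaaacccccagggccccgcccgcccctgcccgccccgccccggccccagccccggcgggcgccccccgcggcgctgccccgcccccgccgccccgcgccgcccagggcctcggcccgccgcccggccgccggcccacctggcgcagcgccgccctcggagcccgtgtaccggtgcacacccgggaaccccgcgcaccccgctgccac
The marked letters in the Wnt11 window are CTTTGA read on the opposite strand, 50 bases before the start. Neither core motif stood in the Wnt6 or the Wnt3a window. Over the members, 2 of 10 windows held a core motif, the other being the first start of Wnt5b, and 27.6% of all 32851 windows in the RefSeq table held one. The Wnt6 window was 79.6% G and C, that of Wnt11 70.8% and that of Wnt3a 87.6%. A match is a description of these letters and not a binding site.

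Facts that bear on all values are few. Relative depth, as mean coverage per unit of FPKM, ran from 3.12 in TLSMGC replicate 1 to 6.84 in TLSMG replicate 3, and the labels state at least 23700000 fragments per library. Between 13688 and 14494 genes per library reached 1 TPM. By correlation over genes, 13 libraries were nearest to a library of their own group, while TLSMGC replicate 3 and TLSMGCL replicate 2 were nearest to each other. Tests were made with limma on log2(TPM + 1) with Benjamini-Hochberg adjustment over 14290 genes that averaged at least 1 TPM, and a gene is said to have risen or fallen where the adjusted p was under 0.05. Differences on this scale understate the change of genes with low TPM. Of the members, 7 of 10 passed the filter, and Wnt1, Wnt3 and Wnt10a did not. A gene high in 1 group passes such a filter and then differs between groups almost by construction, so counts of members are descriptions. The share of all genes whose libraries did not overlap is not given here, so a lack of overlap is also only a description. In pooled structures, fewer cells of a type and less RNA per cell cannot be told apart.

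The make-up of the WNT ligand pool differed between the groups. The summed level of all 19 ligand genes was 148 to 203 TPM at 96 h, 56.9 to 70.7 TPM in Gastruloid, 70.3 to 73.5 TPM in TLSMG, 94.6 to 135 TPM in TLSMGC and 137 to 145 TPM in TLSMGCL. The 10 members held 70.8% to 79.4% of the sum in Gastruloid and at least 82.6% in every library of the other groups, the largest part of the remainder in Gastruloid being Wnt16 with 18.3% ± 4.47 (SD, n = 3). At 96 h the pool was shared among Wnt5a, Wnt8a, Wnt3a and Wnt5b, with mean shares of 32.2%, 21.1%, 19.2% and 14.4%. In Gastruloid and TLSMG a single gene, Wnt5a, held 49.0% ± 4.59 and 61.5% ± 7.02 (SD, n = 3). In TLSMGC and TLSMGCL that place was taken by Wnt6 with 48.1% ± 3.54 and 52.1% ± 2.60, and Wnt11 held 11.5% ± 0.894 and 15.1% ± 0.303 (SD, n = 3). Wnt5b kept a mean share of 9.34% to 14.5% in all 5 groups.

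**Figure D1:**
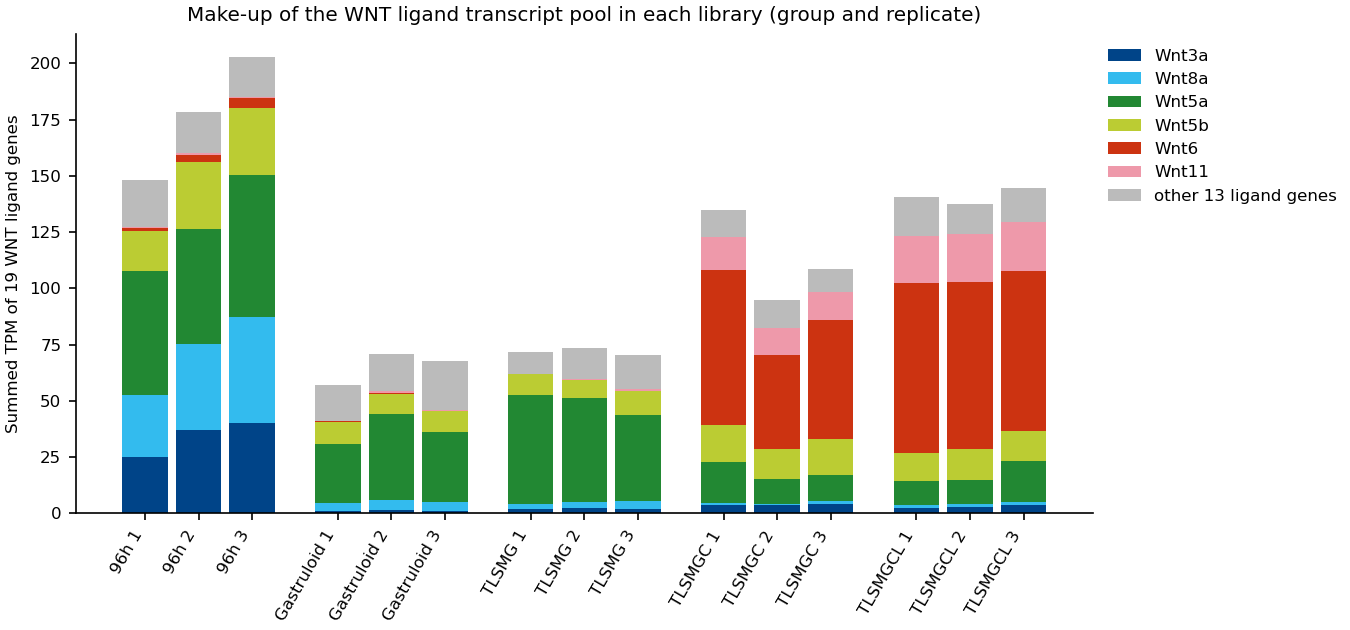
Stacked bars of the TPM of WNT ligand genes in each of the 15 libraries, with 6 members in colour and the other 13 ligand genes in grey; the height of a bar is the sum over all 19 genes. Wnt3a and Wnt8a are visible at 96 h, Wnt5a is the largest part of the bar in Gastruloid and TLSMG, and Wnt6 and Wnt11 fill most of it in TLSMGC and TLSMGCL.

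Among the ligands of the posterior embryo, Wnt3a and Wnt8a stood high at 96 h and low in all groups at 120 h, with or without Matrigel and with or without CHIR99021. Wnt3a, the ligand of tailbud progenitors (ENSMUSG00000009900.7, chromosome 11, 59248033 to 59290752, minus strand), measured 25.2, 37.2 and 40.0 TPM in the 96h libraries. At 120 h it measured 1.14, 1.32 and 1.06 TPM in Gastruloid, 2.04, 2.47 and 2.18 TPM in TLSMG, 3.95, 3.57 and 4.06 TPM in TLSMGC and 2.36, 2.75 and 3.68 TPM in TLSMGCL. Every library at 96 h lay above every library at 120 h, Gastruloid was lowest without overlap, and TLSMGCL overlapped both other Matrigel groups. Wnt3a fell from 96h to Gastruloid by 3.99 on the log2 scale (SE 0.16, adjusted p 4.64e-10), a ratio of mean TPM of 29.1. It fell to TLSMG by 3.42 (SE 0.16), a ratio of 15.3, and to TLSMGC by 2.83 (SE 0.16), a ratio of 8.85. Among the 120 h groups, Wnt3a was higher in TLSMG than in Gastruloid by 0.57 (SE 0.16, adjusted p 0.0123) and higher in TLSMGC than in TLSMG by 0.59 (SE 0.16, adjusted p 0.0096). The first of these calls was lost with FPKM in place of TPM (adjusted p 0.0811). The difference between TLSMGCL and TLSMG, 0.27 (SE 0.16), did not pass (adjusted p 0.183), but did after median-of-ratios scaling (adjusted p 0.0486).

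Wnt8a, a ligand of the early primitive streak and posterior epiblast (ENSMUSG00000012282.2, chromosome 18, 34542313 to 34548273, plus strand), measured 27.7, 38.2 and 47.4 TPM at 96 h. It measured 3.45, 4.62 and 4.04 TPM in Gastruloid, 2.12, 2.81 and 3.37 TPM in TLSMG, 0.513, 0.592 and 1.52 TPM in TLSMGC and 1.28, 1.63 and 1.22 TPM in TLSMGCL. Its order at 120 h ran opposite to that of Wnt3a, with Gastruloid highest and the CHIR99021 groups lowest, and only TLSMGC and TLSMGCL overlapped. From 96h it fell by 2.92 on the log2 scale to Gastruloid (SE 0.22), a ratio of 9.35, fell by 3.34 to TLSMG, a ratio of 13.7, and fell by 4.38 to TLSMGC, a ratio of 43.2. Wnt8a also fell with CHIR99021 in Matrigel, by 1.03 in TLSMGC against TLSMG (SE 0.22, adjusted p 0.00187). In TLSMGCL against TLSMG it fell by 0.65 (SE 0.22, adjusted p 0.0244). That last call did not hold without TLSMG replicate 2 (adjusted p 0.0617), TLSMG replicate 3 (0.0961), TLSMGCL replicate 1 (0.0585) or TLSMGCL replicate 3 (0.0664), nor with no filter (0.0592), FPKM (0.0805) or median-of-ratios scaling (0.0825). Between Gastruloid and TLSMG the difference of -0.43 did not pass (adjusted p 0.132), although the libraries did not overlap.

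Wnt3, the ligand that starts gastrulation (ENSMUSG00000000125.5, chromosome 11, 103774150 to 103817957, plus strand), was low throughout. It measured 1.16, 1.03 and 1.04 TPM at 96 h, 0.424, 0.577 and 0.483 TPM in Gastruloid and 0.433, 1.01 and 0.367 TPM in TLSMG. In TLSMGC it measured 0.145, 0.147 and 0.0917 TPM and in TLSMGCL 0.215, 0.0440 and 0.252 TPM. The 96h libraries lay above all others, and the CHIR99021 groups below Gastruloid and TLSMG without overlap. Wnt3 averaged less than 1 TPM and was tested only in the fit with no filter, over 29971 genes, of which 22.1% were called in Gastruloid against 96h, 25.7% in TLSMG against 96h and 20.8% in TLSMGC against TLSMG. There it was lower in Gastruloid than in 96h by -0.48 (adjusted p 0.0142), in TLSMG than in 96h by -0.40 (adjusted p 0.0319) and in TLSMGC than in TLSMG by -0.49 (adjusted p 0.0135).

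Summed tailbud marker genes were, like the group means of Wnt3a, highest at 96 h and higher in the CHIR99021 groups than in Gastruloid and TLSMG. Wnt8a and Wnt3 were lowest in the CHIR99021 groups. The 8 presomitic and tailbud markers (T, Tbx6, Msgn1, Hes7, Cyp26a1, Fgf8, Nkx1-2 and Cdx2) summed to 778 to 1238 TPM at 96 h, 113 to 200 TPM in Gastruloid, 163 to 213 TPM in TLSMG, 322 to 413 TPM in TLSMGC and 312 to 363 TPM in TLSMGCL. The sums of Gastruloid and TLSMG overlapped, where Wnt3a did not. All 8 reached 1 TPM in every library at 96 h and in both CHIR99021 groups, and Msgn1 was under 1 TPM in all Gastruloid libraries. Not every marker followed the sum. Cyp26a1 went against it, with 1.51 to 3.63 TPM in the CHIR99021 groups and 3.48 to 8.85 TPM in Gastruloid and TLSMG. Nkx1-2 overlapped between TLSMG (44.5 to 58.1 TPM) and TLSMGC (41.5 to 63.4 TPM). Fgf8 overlapped between TLSMG (21.4 to 27.9 TPM) and TLSMGCL (25.6 to 32.6 TPM). At 96 h, library 1 was the lowest of its group in this sum and in Wnt3a and Wnt8a. The part of these cells in the ligand levels was not tested.

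Wnt6 was the member with the largest difference between groups. It was at most 0.232 TPM in structures at 120 h without added CHIR99021 and was the most abundant WNT ligand with it. Wnt6 (ENSMUSG00000033227.7, chromosome 1, 74771892 to 74785322, plus strand) measured 1.69, 3.37 and 4.26 TPM at 96 h, 0.0423, 0.0825 and 0.0624 TPM in Gastruloid and 0.139, 0.0417 and 0.232 TPM in TLSMG. In TLSMGC it measured 68.9, 41.8 and 53.0 TPM, and in TLSMGCL 75.3, 73.9 and 71.1 TPM. Gastruloid and TLSMG overlapped, and every other pair of groups was apart, with TLSMGCL above TLSMGC, though that last difference was not called. From TLSMG to TLSMGC Wnt6 rose by 5.58 on the log2 scale (SE 0.21, adjusted p 6.06e-10). The ratio of mean TPM was 396, against a level in TLSMG of 0.138 ± 0.0953 TPM (SD, n = 3). In TLSMGCL against TLSMG it rose by 6.03 (SE 0.21), and these comparisons share the TLSMG libraries. The level also exceeded the starting point, with a rise of 3.78 from 96h to TLSMGC (SE 0.21), a ratio of 17.6. From 96h it fell by 1.90 to Gastruloid and fell by 1.80 to TLSMG (SE 0.21 for both).

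Wnt6 belongs to a pair with Wnt10a, a ligand of skin and tooth development (ENSMUSG00000026167.14, chromosome 1, 74791516 to 74804179, plus strand). They lie on the same strand with 6193 bases and no annotated gene between them. Wnt10a measured 0.776, 1.09 and 1.56 TPM at 96 h, 0.603, 0.549 and 0.693 TPM in TLSMGC and 0.854, 1.02 and 0.662 TPM in TLSMGCL. It measured 0.0355 TPM in 1 Gastruloid library and 0.0709 and 0.0397 TPM in 2 TLSMG libraries, and was listed at 0 in the remaining 3 libraries of these groups. The pair was thus low in the same groups, but the proportion differed, with Wnt10a at 32.2% to 46.0% of Wnt6 at 96 h and at 0.876% to 1.38% in TLSMGC and TLSMGCL. In the fit with no filter, Wnt10a was higher in TLSMGC than in TLSMG by 0.64 (adjusted p 0.00133) and in TLSMGCL than in TLSMG by 0.83 (adjusted p 0.000184). It was lower in TLSMGC than in 96h by -0.39 (adjusted p 0.0239), where Wnt6 was higher. With no filter, 22.9% of all genes were called in TLSMGCL against TLSMG and 21.3% in TLSMGC against 96h. Between TLSMGCL and TLSMGC Wnt10a overlapped and was not called, as were all but 0.47% of genes in that fit. The other neighbouring WNT genes, again with no annotated gene between them, were Wnt3 with Wnt9b at a distance of 24328 bases, Wnt3a with Wnt9a at 16175 bases and Wnt1 with Wnt10b at 11706 bases, and each of these pairs lies on opposite strands.

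Summed surface ectoderm markers were lowest in the groups where Wnt6 was highest. The 7 surface ectoderm markers (Trp63, Grhl2, Grhl3, Tfap2a, Tfap2c, Krt8 and Krt18) summed to 58.1 to 76.0 TPM at 96 h, 68.0 to 84.2 TPM in Gastruloid, 55.6 to 70.3 TPM in TLSMG, 23.8 to 29.8 TPM in TLSMGC and 29.6 to 33.6 TPM in TLSMGCL. Krt8 and Krt18 together made up most of this sum in every library. Grhl3 in TLSMGCL, at 6.53 to 7.59 TPM, overlapped Gastruloid (7.18 to 10.0 TPM) and TLSMG (7.50 to 9.09 TPM). Trp63 and Tfap2a were under 1 TPM in all 15 libraries. Lhx1, Osr1, Pax2, Pax8 and Wt1, the 5 markers of intermediate mesoderm, summed to 58.3 to 70.2 TPM at 96 h, 6.61 to 7.30 TPM in Gastruloid and 23.9 to 32.9 TPM in TLSMG. They summed to 18.5 to 26.8 TPM in TLSMGC and 5.41 to 7.45 TPM in TLSMGCL, where Pax2, Pax8, Osr1 and Wt1 were all under 1 TPM. A link of either list to the Wnt6 level was not tested.

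Wnt11, a ligand of cell movement and of kidney and heart development (ENSMUSG00000015957.12, chromosome 7, 98835112 to 98855195, plus strand), shared the rise with CHIR99021 but not the level at 96 h. It measured 0.356, 0.809 and 0.289 TPM at 96 h, 0.405, 0.867 and 0.412 TPM in Gastruloid and 0.104, 0.456 and 0.856 TPM in TLSMG. With CHIR99021 it measured 14.6, 11.9 and 12.2 TPM in TLSMGC and 21, 21.3 and 21.7 TPM in TLSMGCL. The first 3 groups overlapped each other, TLSMGC lay above them and TLSMGCL above TLSMGC, though that last difference was not called. The rise from TLSMG to TLSMGC was 3.26 on the log2 scale (SE 0.19, adjusted p 3.60e-08), a ratio of mean TPM of 27.3, and that from 96h to TLSMGC was 3.24 (SE 0.19). In TLSMGCL against TLSMG the rise was 3.96 (SE 0.19), a ratio of 45.2. The differences of Gastruloid and TLSMG from 96h, 0.08 and -0.03, did not pass (adjusted p 0.772 and 0.915).

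**Figure D2:**
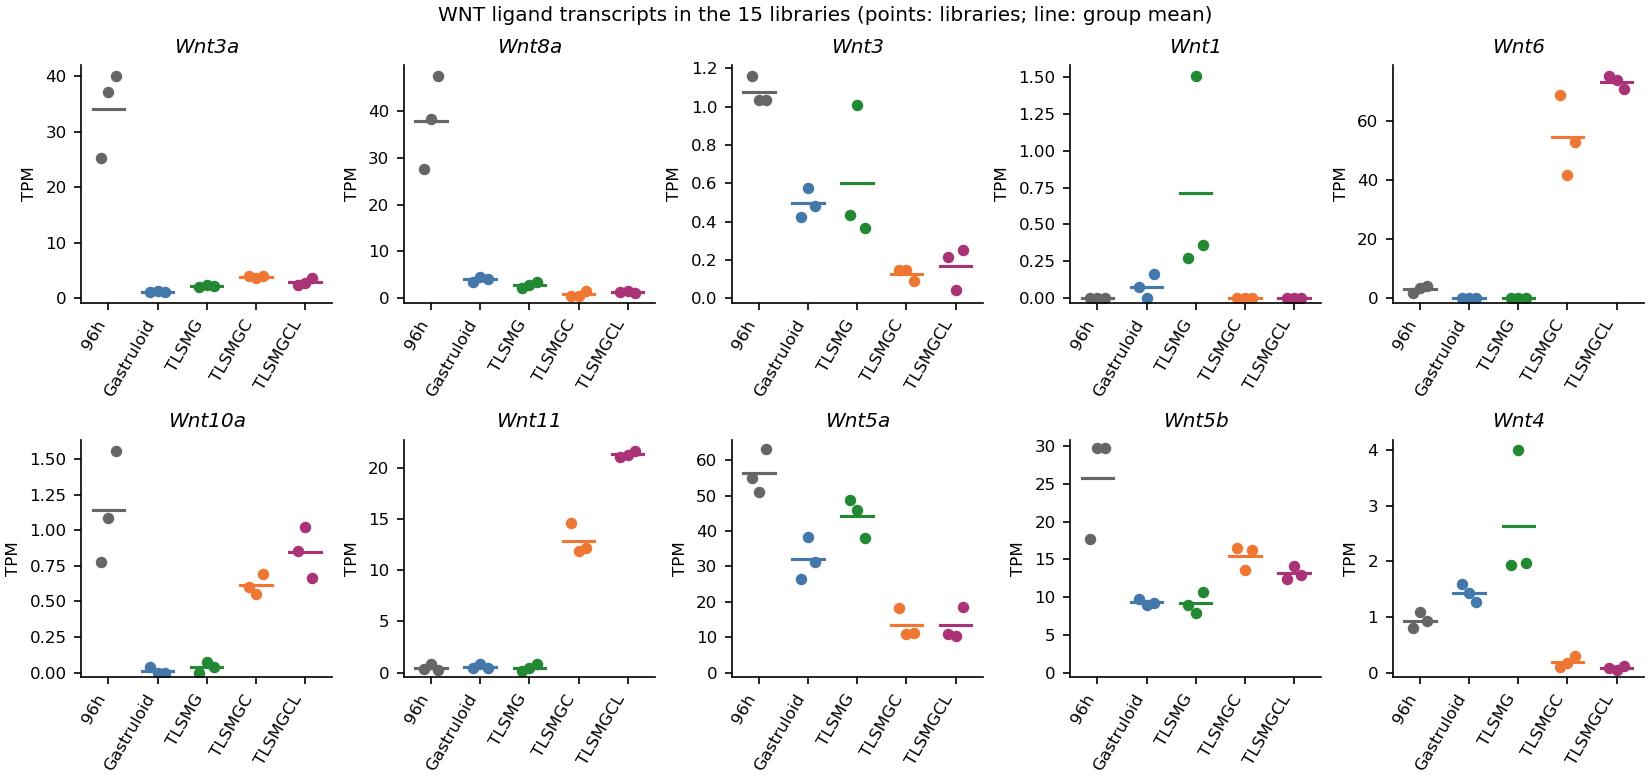
TPM of the 10 WNT ligands by group on separate linear axes that start at 0; points are the 3 libraries of a group and lines their mean. Wnt3a and Wnt8a are highest at 96 h, Wnt6 and Wnt11 in the 2 groups with added CHIR99021, and Wnt4 and Wnt1 in TLSMG, where 1 library lies above the others.

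The ligands of convergent extension and polarity, Wnt5a and Wnt5b, were present in every library, and they moved in opposite directions with CHIR99021. Wnt5a (ENSMUSG00000021994.15, chromosome 14, 28504750 to 28527448, plus strand) measured 54.8, 50.9 and 63.2 TPM at 96 h, 26.5, 38.4 and 31.2 TPM in Gastruloid and 48.7, 45.9 and 38.0 TPM in TLSMG. It measured 18.3, 11 and 11.3 TPM in TLSMGC and 10.9, 10.3 and 18.6 TPM in TLSMGCL. The CHIR99021 groups lay below all others and overlapped each other, and Gastruloid and TLSMG overlapped by 1 library. From TLSMG to TLSMGC Wnt5a fell by 1.67 on the log2 scale (SE 0.22), a ratio of 3.27, and in TLSMGCL by 1.70 (SE 0.22), a ratio of 3.32. From 96h it fell by 0.81 to Gastruloid (SE 0.22, adjusted p 0.00988) and by 2.01 to TLSMGC. The differences of TLSMG from 96h, -0.34, and from Gastruloid, 0.46, did not pass (adjusted p 0.219 and 0.113), and both passed when only the groups compared were in the fit (adjusted p 0.0426 and 0.0416).

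Wnt5b, the closest relative of Wnt5a (ENSMUSG00000030170.14, chromosome 6, 119432531 to 119544347, minus strand), measured 17.7, 29.8 and 29.7 TPM at 96 h. It measured 9.77, 8.91 and 9.24 TPM in Gastruloid, 8.91, 7.94 and 10.7 TPM in TLSMG, 16.5, 13.6 and 16.2 TPM in TLSMGC and 12.4, 14.1 and 13 TPM in TLSMGCL. Gastruloid and TLSMG overlapped at the lowest level, TLSMGC and TLSMGCL overlapped above them, and the 96h libraries were highest. Wnt5b fell from 96h by 1.34 to Gastruloid and by 1.36 to TLSMG (SE 0.17 for both), ratios of 2.76 and 2.80, and by 0.67 to TLSMGC. It rose from TLSMG to TLSMGC by 0.69 (SE 0.17, adjusted p 0.00464), a ratio of 1.68. In TLSMGCL against TLSMG the difference was 0.48 (SE 0.17, adjusted p 0.0299). That call did not hold without TLSMG replicate 1 (adjusted p 0.0685), TLSMG replicate 2 (0.112), TLSMGCL replicate 2 (0.0943) or TLSMGCL replicate 3 (0.0570), nor with no filter (0.0635). Genes on the opposite strand overlap Wnt5a (Gm2670), Wnt5b (Fbxl14), Wnt6 (Gm29539) and Wnt11 (Gm8398), and the strand setting of the quantification is not given in the sources used here, so reads of these genes may not be fully apart.

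Wnt4 and Wnt1 were highest in Matrigel without CHIR99021. Wnt4, a ligand of the neural tube and of kidney tubule formation (ENSMUSG00000036856.4, chromosome 4, 137277489 to 137299726, plus strand), measured 0.799, 1.08 and 0.928 TPM at 96 h, 1.6, 1.42 and 1.27 TPM in Gastruloid and 1.94, 4.00 and 1.98 TPM in TLSMG. It measured 0.0950, 0.163 and 0.303 TPM in TLSMGC and 0.0787, 0.0492 and 0.115 TPM in TLSMGCL. Only TLSMGC and TLSMGCL overlapped, and they lay below every other group. Wnt4 rose from 96h to TLSMG by 0.87 on the log2 scale (SE 0.18, adjusted p 0.0012), and fell from TLSMG by 1.57 to TLSMGC and by 1.70 to TLSMGCL (SE 0.18 for both). From 96h to TLSMGC it fell by 0.71 (SE 0.18). The 8 neural tube markers (Sox1, Sox2, Sox3, Pax6, Irx3, Irx5, Nkx6-1 and Hes5) summed to 75.7 to 93.1 TPM at 96 h, 394 to 540 TPM in Gastruloid, 210 to 316 TPM in TLSMG, 63.5 to 77.3 TPM in TLSMGC and 75.8 to 90.4 TPM in TLSMGCL, with Pax6 under 1 TPM in all libraries of 96h, TLSMGC and TLSMGCL. They were thus low with CHIR99021, as Wnt4 was, but overlapped their sums at 96 h, where Wnt4 did not. They were highest in Gastruloid, where Wnt4 was not. Not every marker followed the sum. Nkx6-1 overlapped between TLSMGC (2.23 to 4.24 TPM) and TLSMG (2.12 to 3.28 TPM), as did Hes5 (9.00 to 12.3 and 8.22 to 16.6 TPM). The part of these markers in the Wnt4 level was not tested. TLSMG exceeded Gastruloid by 0.54 (SE 0.18, adjusted p 0.0271). That call was lost without Gastruloid replicate 2 (adjusted p 0.0631) or 3 (0.0763), with a pseudocount of 0.1 (0.0934), after median-of-ratios scaling (0.0728) and with only both groups in the fit (0.0899). Without any 1 TLSMG library the gene averaged less than 1 TPM and was not tested.

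Wnt1, the ligand of the midbrain and the dorsal neural tube (ENSMUSG00000022997.9, chromosome 15, 98789857 to 98793837, plus strand), was listed at 0 in every 96h, TLSMGC and TLSMGCL library. It measured 0.272, 1.5 and 0.360 TPM in TLSMG, 0.0736 and 0.163 TPM in 2 Gastruloid libraries, and was listed at 0 in the remaining one. The highest value of Wnt1, of Wnt4 and, within TLSMG, of Wnt3 was in TLSMG replicate 2. Of 9 markers of the dorsal neural tube and neural crest, 3 were over 1 TPM in that library and under 1 TPM in the other TLSMG libraries, with Olig3 at 3.49 TPM against 0.0977 and 0.776 TPM in the other TLSMG libraries, Tfap2b at 1.12 TPM against 0.0491 and 0.0416 TPM and Foxd3 at 1.20 TPM against 0.399 and 0.276 TPM. The whole list (with Lmx1a, Gdf7, Pax3, Pax7, Msx1 and Sox10) summed to 44.4, 82.9 and 76.9 TPM in TLSMG replicates 1, 2 and 3, so on the sum replicate 1 was low and replicates 2 and 3 were near each other, and Pax3 and Pax7 were highest in replicate 3. By group it summed to 36.5 to 42.9 TPM at 96 h, 27.3 to 40.2 TPM in Gastruloid, 44.4 to 82.9 TPM in TLSMG, 82.8 to 93.0 TPM in TLSMGC and 52.1 to 65.4 TPM in TLSMGCL. In TLSMGC most of the sum was Pax3 (35.9 to 43.8 TPM) and Msx1 (35.5 to 44.3 TPM). Lmx1a, Gdf7, Olig3, Sox10, Foxd3 and Tfap2b were under 1 TPM in all TLSMGC and TLSMGCL libraries. Lmx1a was listed at 0 in all 96h libraries, was 1.12 to 1.36 TPM in TLSMG and stayed under 1 TPM in the other groups. The part of cells with these markers in the Wnt1 and Wnt4 levels was not tested.

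The members were then counted comparison by comparison. All 7 tested members differed among the 5 groups by limma's moderated F test, as did 73.5% of all tested genes. From 96h to Gastruloid 5 of 7 fell (Wnt3a, Wnt8a, Wnt6, Wnt5b and Wnt5a) and none rose, where 41.2% of all tested genes were called and 20.5% were lower. The median difference of the 7 was -1.34 and that of all tested genes 0.00. From 96h to TLSMG 4 of 7 fell and Wnt4 rose. Of all tested genes, 46% were called, with 12.5% of all tested genes lower and 33.5% higher. The median of the 7 was -1.36, beside 0.14 over all genes.

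From 96h to TLSMGC all 7 tested members differed, 5 lower and Wnt6 and Wnt11 higher, where 40.7% of all genes were called, 20.6% higher and 20.1% lower. TLSMG differed from Gastruloid in 2 of 7, Wnt3a and Wnt4, where 39.3% of all genes were called, 31.5% higher and 7.87% lower in TLSMG. All 7 tested members differed between TLSMGC and TLSMG, with Wnt6, Wnt11, Wnt5b and Wnt3a higher and Wnt5a, Wnt4 and Wnt8a lower, where 40.9% of all genes were called, 10.4% higher and 30.5% lower. Wnt11 passed the filter only through the CHIR99021 groups and Wnt4 only through TLSMG. Their calls in comparisons with these groups were thus close to fixed by the filter. TLSMGCL differed from TLSMG in 6 of 7, 3 higher and 3 lower, and 44.9% of all genes were called, 9.31% higher and 35.6% lower. The median over all tested genes was 0.14 in TLSMG against 96h, 0.13 in TLSMG against Gastruloid, -0.16 in TLSMGC against TLSMG and -0.18 in TLSMGCL against TLSMG, so the larger differences above stand relative to shifts of that size. After median-of-ratios scaling, which moves these medians to between -0.02 and 0.01, the split of higher to lower genes in TLSMGC against TLSMG changed from 1490 to 4352 into 2741 to 2572, and no called member reversed. The corresponding splits were 3147 to 3342 in TLSMG against 96h (4792 to 1785 before), 2753 to 2584 in TLSMG against Gastruloid (4497 to 1125), 2837 to 2749 in TLSMGCL against TLSMG (1330 to 5086) and 104 to 101 in TLSMGCL against TLSMGC (58 to 111).

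**Figure D3:**
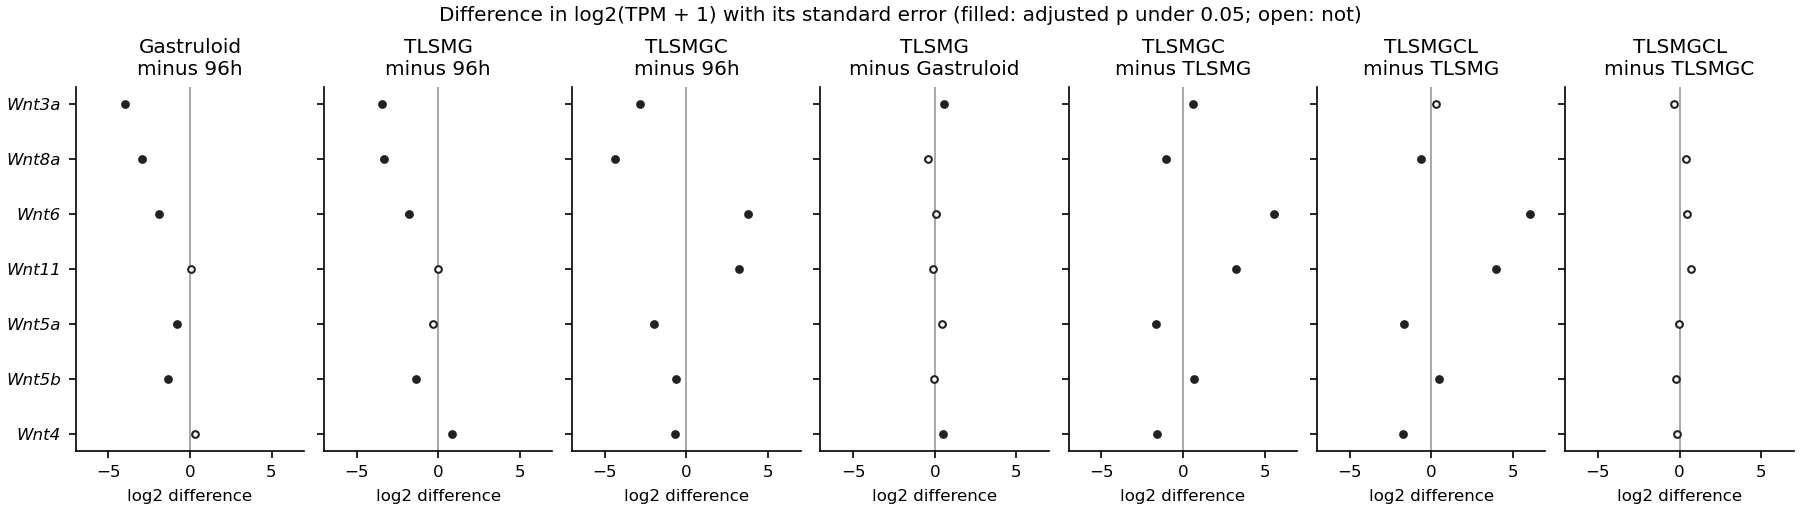
Differences in log2(TPM + 1) of the 7 tested WNT ligands in 7 comparisons; bars are standard errors, which at 0.16 to 0.22 are about as wide as the points, and filled points had an adjusted p under 0.05. With CHIR99021 in Matrigel Wnt6 and Wnt11 lie far to the right and Wnt5a, Wnt4 and Wnt8a to the left, and no point is filled in TLSMGCL minus TLSMGC.

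TLSMGCL and TLSMGC both received added CHIR99021, and LDN was added only in TLSMGCL. No member passed the adjusted threshold in limma, 2 of 7 had an unadjusted p under 0.05, as did 12.9% of all tested genes, and 1.18% of all tested genes were called, 0.406% higher and 0.777% lower. Wnt11 was higher by 0.69 (SE 0.19, adjusted p 0.101). Over 14 alternatives its adjusted p ran from 0.0131, with FPKM, to 0.555, and the FPKM value was the only one under 0.05. Wnt6 was higher by 0.45 (SE 0.21, adjusted p 0.384). The differences of the other 5 tested members ran from -0.32 for Wnt3a to 0.38 for Wnt8a.

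The remaining WNT ligands were 9 genes, of which Wnt2, Wnt8b, Wnt9a and Wnt16 passed the filter. Wnt2, a ligand of lung and vessel development, was listed at 0 in all TLSMG libraries and measured 2.83 ± 0.432 TPM in TLSMGC and 4.18 ± 0.469 TPM in TLSMGCL (SD, n = 3), and it rose in both comparisons with TLSMG. Wnt8b, a relative of Wnt8a, fell from 6.15 ± 0.186 TPM at 96 h to 0.204 ± 0.143 TPM in Gastruloid and was higher in TLSMGC, at 1.82 ± 0.369 TPM, than in TLSMG. Among the tested ligands it was the only one called between TLSMGCL and TLSMGC, lower with LDN by -0.70 (SE 0.13, adjusted p 0.0162). Wnt7a, a ligand of limb and nervous system that averaged less than 1 TPM and was not tested, measured 2.48, 2.37 and 2.16 TPM in TLSMGCL and 0.895, 0.611 and 0.678 TPM in TLSMGC. Wnt16 was higher in Gastruloid, at 11.9 ± 3.28 TPM, than in 96h (adjusted p 0.00388) and in TLSMG (adjusted p 0.00864).

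The genes that release WNT ligands varied over a narrower range. Wls, the carrier that brings WNT proteins to the cell surface, measured 75.0 ± 6.56 TPM at 96 h, 88.6 ± 1.90 TPM in Gastruloid, 102 ± 6.46 TPM in TLSMG, 71.8 ± 4.48 TPM in TLSMGC and 84.8 ± 3.69 TPM in TLSMGCL (SD, n = 3). It fell from TLSMG to TLSMGC by 0.50 (SE 0.07). Porcn, the enzyme that attaches the lipid, was between 8.92 and 13 TPM in the group means and fell from Gastruloid to TLSMG by 0.52 (SE 0.14, adjusted p 0.0114).

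On the receptor side, all 10 Frizzled genes were tested. From 96h to Gastruloid 5 rose and 2 fell, where 20.8% of all tested genes rose and 20.5% fell. From TLSMG to TLSMGC 2 rose and 6 fell, where 10.4% of all tested genes rose and 30.5% fell. Fzd8 rose most from 96h, from 2.45 ± 0.907 TPM to 24.1 ± 1.08 TPM in Gastruloid and 24.6 ± 1.88 TPM in TLSMG, and it fell by 2.66 (SE 0.15) from TLSMG to 3.05 ± 0.390 TPM in TLSMGC. Fzd4, the receptor known for vessels of the retina, rose from Gastruloid to TLSMG by 1.43 (SE 0.18), from 6.31 ± 0.473 to 18.7 ± 0.161 TPM, and fell with CHIR99021 by 2.24. The 8 endothelium markers summed to 260 to 315 TPM in TLSMG and to 8.84 to 78.9 TPM in the other groups, and their part in the Fzd4 level was not tested. Fzd10 fell most from 96h to Gastruloid, by 1.02 (SE 0.09), and rose from TLSMG to TLSMGC by 0.49.

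Among the 6 co-receptors, 2 fell from 96h to Gastruloid, where 41.2% of all tested genes were called. From TLSMG to TLSMGC 1 rose and 1 fell, where 40.9% of all tested genes were called. Ptk7, a polarity receptor, was the one that rose, from 163 ± 23.6 to 262 ± 16.1 TPM (SD, n = 3), and Lrp6 fell by 0.57 (SE 0.13). Of the R-spondins and their receptors, 4 of 7 were tested. Rspo3, a secreted amplifier of WNT signalling, fell from 162 ± 16.8 TPM at 96 h to 13.9 ± 4.34 TPM in Gastruloid, and Lgr4, an R-spondin receptor, rose by 1.49 (SE 0.13) in the same comparison. Rspo3 in TLSMGC, 18.5 ± 2.07 TPM, did not differ from TLSMG past the threshold (difference -0.19, adjusted p 0.464).

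Most tested genes listed as secreted WNT inhibitors fell on the way from 96 h. Of 7 tested among 12 listed, 6 fell and Sfrp2 rose from 96h to Gastruloid, and 5 fell and Sfrp2 rose to TLSMG. Of all tested genes, 20.5% fell from 96h to Gastruloid and 12.5% to TLSMG. Cer1 is on this list, but is best known for binding BMP and NODAL ligands. Its level was 240 ± 143 TPM at 96 h, 24.1 ± 4.58 TPM in Gastruloid, 11.6 ± 2.94 TPM in TLSMG and 0.0869 ± 0.0757 TPM in TLSMGC (SD, n = 3). With CHIR99021 in Matrigel (TLSMGC against TLSMG) 3 rose (Notum, Dkk1 and Frzb) and 4 fell. Notum and Dkk1 are also on the list of targets described next, so the counts of both lists share these genes. Of all tested genes, 10.4% rose and 30.5% fell in that comparison. Frzb was the only inhibitor called between TLSMGCL and TLSMGC, lower with LDN by -0.64 (SE 0.08, adjusted p 0.00233), beside 1.18% of all tested genes.

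Targets and feedback regulators of the β-catenin branch fell from 96 h and rose with CHIR99021. Of 11 listed and tested, 9 fell and none rose from 96h to Gastruloid, with a median of -1.37, and 8 fell to TLSMG. Of all tested genes, 20.5% fell to Gastruloid and 12.5% to TLSMG. From TLSMG to TLSMGC 10 rose and none fell, with a median of 1.5, and Lgr5 was the one that did not pass. In that comparison 10.4% of all tested genes rose and 30.5% fell. From 96h to TLSMGC 7 rose, beside 20.6% of all tested genes, and Lef1 fell. From TLSMG to TLSMGCL 7 rose, beside 9.31% of all tested genes. Sp5, a transcription factor directly activated by WNT, measured 98.3 ± 21.9 TPM at 96 h, 3.72 ± 1.06 TPM in Gastruloid, 7.20 ± 0.849 TPM in TLSMG and 177 ± 18.3 TPM in TLSMGC. Axin2, a feedback inhibitor, measured 56.8 ± 2.99, 19 ± 1.46, 24.2 ± 6.37 and 101 ± 6.77 TPM in the same groups. Between TLSMGCL and TLSMGC 1 of 11 was called, Tcf7, lower by -0.37 (adjusted p 0.0399), beside 1.18% of all tested genes.

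In TLSMGC, Sp5, Axin2 and Notum stood above their 96h level, while Wnt3a was 8.85 times lower than at 96 h. Lef1 had the order of Wnt3a over the group means, though TLSMGC and TLSMGCL differed by less than the spread between libraries. It was the listed target called lower in TLSMGC than at 96h, with 105 ± 6.86 TPM against 329 ± 31.7 TPM (SD, n = 3), a fall of 1.63 on the log2 scale (SE 0.12).

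**Figure D4:**
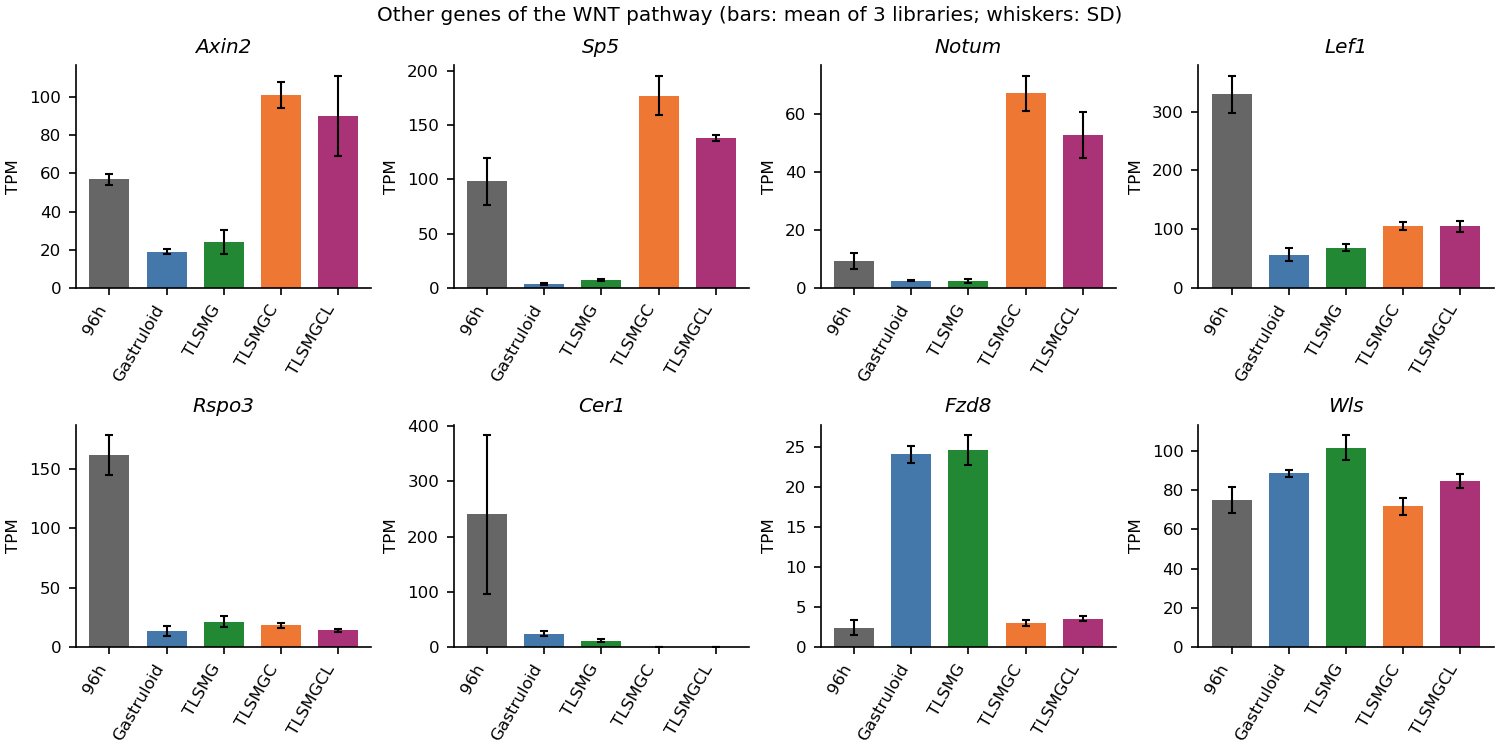
TPM of 8 other genes of the WNT pathway lists as means of 3 libraries with SD whiskers, on linear axes from 0. Axin2, Sp5 and Notum are highest with added CHIR99021, Lef1, Rspo3 and Cer1 at 96 h and Fzd8 in Gastruloid and TLSMG, while Wls stays between 71.8 and 102 TPM.

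Genes with the profile most like that of a member were sought over the 15 libraries, as the smallest root mean square difference of log2(TPM + 1) values, each centred on its own mean. This was done for the 5 members whose group means spanned at least 2 on that scale. Nearest to Wnt3a were Pnliprp2 (0.32) and Rnf213 (0.35), and nearest to Wnt8a were Lefty2 (0.40), an inhibitor of NODAL, and Chrnb4 (0.41). For Wnt5a they were Rerg (0.30) and Cpne5 (0.32), and for Wnt11 Sparcl1 (0.33) and Gbp10 (0.41). Wnt6 had no profile as close, with Slc25a48 at 0.84 and Notum at 0.87. Its group means spanned 6.13, against 2.04 to 4.38 for the other members compared, and a distance of this kind can grow with the span. Slc25a48 rose with CHIR99021 from 0.333 TPM in TLSMG to 23.5 TPM in TLSMGC and 25.4 TPM in TLSMGCL, as means of 3 libraries, and Notum from 2.38 to 67.0 and 52.7 TPM. These are likenesses among libraries that share groups and depth, and describe no relation between the genes.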

How the data were processed

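Bulk RNA sequencing tables of 15 libraries (5 groups of 3, by the labels' titles) were analysed; single-cell and NanoString measurements were not analysed here. Libraries came from polyadenylated RNA with strand kept, per the labels' protocols. The submitters' processing notes name cutadapt 2.4, STAR 2.7.3a, StringTie 2.0 and build mm10. The deposited TPM and FPKM values and the deposited coverage values are StringTie gene abundances per library, per the file headers; coverage entered no test. No counts were used, so no intervals or detection floors were computed, and a listed 0 may be a failed estimate.

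Lines of one gene ID (7 to 13 repeated per table) were summed. limma 3.58.1 in R 4.3.3 fitted log2(TPM + 1) of all 15 libraries in 1 model (empirical Bayes with an intensity trend), for 14290 genes with mean TPM of at least 1, and 7 comparisons were taken from it. P-values were two-sided, adjusted by Benjamini-Hochberg over all tested genes within a comparison, with a threshold of 0.05. They measure the spread between these pooled libraries. The script was checked on simulated data. Gene positions of all 10 members were the same in GENCODE M21. Python 3.11.15, pandas 2.3.3, numpy 2.4.6 and matplotlib 3.10.9 were used.

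Members, pathway lists (9 other ligands, 2 secretion genes, 10 Frizzled receptors, 6 co-receptors, 7 R-spondin genes, 12 inhibitors and 11 targets) and marker lists were chosen with earlier results of these data known. Notum and Dkk1 are on both the inhibitor and the target list, and Lgr5 on both the R-spondin and the target list. All members are named, the largest called rise and fall of a pathway list or its only call may be named, and other genes were named after their values were seen. The marker lists not described with a result summed, over all libraries, to 797 to 2560 TPM for somite, 15.4 to 67 TPM for gut endoderm, 17.3 to 197 TPM for pluripotency and 8.45 to 45.7 TPM for feeder fibroblast. Promoter windows were searched for CTTTGA or CTTTGT and for the T-box motif AGGTGT on both strands, the last of which was in 11.8% of all windows and in 1 window of a member, Wnt5b. Alternatives were pseudocounts of 0.1 and 0.5, no filter, a minimum mean of 5 TPM, FPKM, median-of-ratios scaling, only the groups compared, a replicate block and leaving out each library.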

Additional observations from a re-analysis of the deposited data

How the results depend on the processing

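Of the counts recomputed under the alternatives, 202 stayed within 1.5 times their value and 16 did not, and of the log2 differences of single members 632 kept their side of the threshold, 18 lost their call, 4 gained one and no called difference reversed. In TLSMG against 96h, 8 of 10 ligands were called with no filter, in place of 5 of 7. In TLSMG against Gastruloid, 2 ligands were called, and 1 was with a pseudocount of 0.1, a minimum mean of 5 TPM or median-of-ratios scaling, 0 with FPKM, and 1 to 2 with a library left out. In TLSMGCL against TLSMG, leaving out a library gave 3 to 5 in place of 6, with 3 (Wnt5a, Wnt6 and Wnt11) without TLSMG replicate 2. In TLSMGCL against TLSMGC, FPKM gave 1 call, Wnt11, in place of 0, and the count over all genes was 169, 46 with only these groups in the fit (34 shared) and 56 to 197 with a library left out, the lowest without TLSMGC replicate 2. The cause was not tested. Wnt1, Wnt3 and Wnt10a averaged less than 1 TPM, and their deposited coverage was not used to judge how many reads stood behind these values.

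The replicate numbers did not pair the libraries: over 30 pairs of libraries with a shared number, the mean correlation of deviations from the group means was -0.02 (-0.181 to 0.104). With the replicate number as a block, 5, 5, 7, 2, 7, 6 and 0 ligands were called in the 7 comparisons in the order of the plot of differences, the same as with no block. The counts over all genes with the block were 5659, 6381, 5580, 5382, 5599, 6187 and 122.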
